A study of Mus musculus with 6 samples.

Results

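Egr1, Egr2, Egr3, Nr4a1, Nr4a2, Nr4a3, Klf2, Klf4, Klf6 and Klf9 are transcription factor genes that many cells switch on within minutes to hours of a stimulus. The 10 genes were chosen by name, and every probe set that the platform annotation assigns to one of them was taken. That gave 12 probe sets of 8 genes, out of 12422 probe sets and 8251 named genes on the array. Egr3 and Nr4a3 have no probe set listed and were not analysed here.

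The samples were whole adrenal glands of male mice aged 12 weeks, on single-colour Affymetrix arrays. The 3 glands of chromogranin A (Chga) knockout mice were set against 3 of wild-type mice, to ask how adrenal gene expression differs without this protein of the catecholamine storage granules. The labels give no strain background, the extent of the deletion, or the time of day and handling at tissue collection. Signals are intensities on the authors' common scale. Levels of different probe sets are not read as relative amounts of RNA, since each probe set has its own brightness. The marker sums below add different probe sets, so the brighter ones weigh more in them.

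The Egr proteins are zinc finger factors that bind GC-rich DNA, and their genes are switched on through serum response factor and its ternary complex partners when growth factor or calcium signals activate the mitogen-activated protein kinases. The Nr4a proteins are orphan nuclear receptors, acting without a known classical ligand, whose genes respond strongly to cyclic AMP. In adrenal cells they rise on exposure to corticotropin or angiotensin and act on genes of steroid synthesis. The Klf proteins are zinc finger factors that bind CACCC and GC-rich boxes: Klf2 and Klf4 are known from endothelium, Klf6 as a gene induced by injury and stress, and Klf9 as a target of thyroid hormone and glucocorticoids.

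Chga, the deleted gene, read 1188, 858 and 951 in knockout glands 1 to 3 and 46719, 30213 and 35306 in the wild-type glands for its brighter probe set, so the labels and the gene's signal go together. Defining genes of both parts of the gland were bright: the summed signal of 5 medullary genes was 191924 to 204481 in knockout and 161741 to 178917 in wild-type arrays. Chgb, the brightest of them, read 93585, 120199 and 98209 in knockout and 69305, 77123 and 76132 in wild-type glands. Each of the other medullary genes overlapped between the genotypes. The summed signal of 7 cortical genes was 466333 to 532763 in knockout and 437489 to 534782 in wild-type arrays. The arrays also differed in other ways. The ratio of 3' to 5' signal for Gapdh, a sign of RNA integrity, was 0.831, 1.30 and 1.29 in knockout glands 1 to 3, against 0.762 to 0.806 in wild type. Transcripts of skeletal muscle stood out in knockout glands 2 and 3: the summed signal of 12 markers was 10114, 82612 and 41425 in knockout glands 1 to 3, against 10191 to 10702 in wild type. Knockout array 1 was nearer to the wild-type arrays in both measures than knockout arrays 2 and 3, so its values are given beside the results below. Its Gapdh ratio was still above the wild-type range. Its signal of the muscle gene Acta1 was 565, against 29.1 to 180 in wild type.

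Egr1 and Klf4 were higher in the knockout adrenal, and the signals of Nr4a2, Nr4a1, Klf6 and Egr2 were also above those of every wild-type array without passing the test over all genes. Of the 12 probe sets, 9 of 7 genes were bright enough to be tested. In limma with Benjamini-Hochberg adjustment over 7453 probe sets, 2 of the 9 passed an adjusted p of 0.05, both higher, where 0.161% of all tested probe sets passed as higher in the knockout. At an unadjusted p under 0.05, 7 of the 9 were higher, against 5.06% of all tested probe sets. Egr1 alone passed when knockout array 1 was the only knockout array, and when the Gapdh ratio was a covariate. In 8 of the 9 all knockout arrays lay above all wild-type arrays, which held for 7.55% of all tested probe sets. The median log2 change over the brightest probe set of each of the 7 genes was 1.05, beside 0.00 over all 5663 named genes tested. The 10 genes were picked with earlier results of these data known, so these shares describe them and are no independent evidence.

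**Figure D1:**
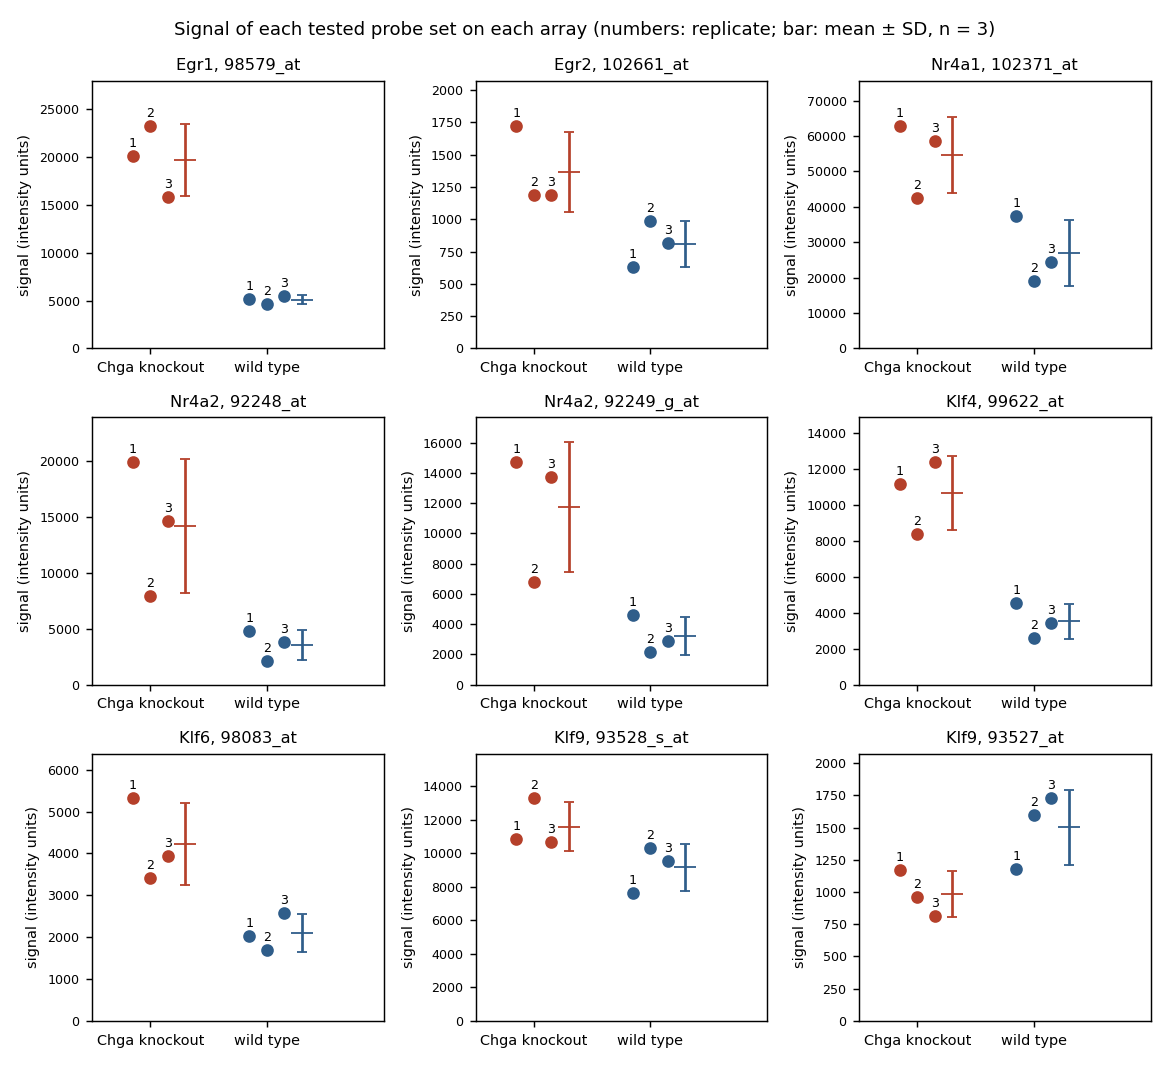
Signal in intensity units (linear axes from 0) of the 9 tested probe sets on the 3 Chga knockout arrays (left in each panel) and the 3 wild-type arrays (right), with each array's replicate number and the group mean ± SD (n = 3). The knockout points lie above all wild-type points in 8 panels, and below them for the Klf9 probe set 93527_at.

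Egr1, the first member of its family to be induced in most cells, carried the clearest change. Its brighter probe set, 98579_at, read 20086, 23306 and 15792 in knockout glands 1 to 3, against 5138, 4586 and 5509 in wild-type glands 1 to 3. The wild-type arrays lay close together, and the lowest knockout array was 2.87 times the highest of them. The mean was 19728 ± 3770 in knockout and 5077 ± 465 in wild-type glands (SD, n = 3 each), a 3.84-fold rise (log2 change 1.94 ± 0.17 SE, limma adjusted p = 0.000861). Only 7 of the 7453 tested probe sets had a smaller p. Setting only knockout array 1 beside the wild-type group, which assumes that the lone array varies like the others, the log2 change was 1.98 (adjusted p = 0.019). The other probe set of Egr1, 161802_i_at, was too dim to be tested: it read 149, 429 and 1154 in knockout glands 1 to 3 and 511, 256 and 280 in the wild-type glands. Those groups overlap, so the Egr1 result rests on 1 probe set.

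Egr2, best known from Schwann cells, where it drives myelin genes, had a smaller difference. Its only probe set read 1726, 1187 and 1186 in knockout glands 1 to 3, and 627, 983 and 817 in wild-type glands 1 to 3. The groups do not overlap, but the lowest knockout array was only 1.21 times the highest wild-type array. The log2 change was 0.74 ± 0.27 (SE, 95% interval 0.14 to 1.35), and it did not pass (limma adjusted p = 0.389). Whether Egr1 and Egr2 differ in their change was not tested.

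The stretches before the Egr2 starts are shown because they hold the DNA element through which serum response factor acts. Of 5 windows of 300 bases around annotated Egr2 starts (250 before to 50 after, RefSeq, GRCm38.p6), 4 hold a CArG box, the binding site of that factor, searched on both strands. Among all 32851 windows 1.63% hold one. Of the 8 members searched, which did not include Egr1, only Egr2 had a window with a CArG box. Site 1 lies at chr10:67537484-67537513 and site 2 at chr10:67537787-67537816, both on the plus strand, and 3 of the 4 windows share site 2. The box is in capitals.
Egr2 site 1: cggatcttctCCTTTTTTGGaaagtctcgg
Egr2 site 2: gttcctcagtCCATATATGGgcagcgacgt
A match of letters describes the sequence and shows no binding.

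Nr4a2, also called Nurr1, had a fold difference close to that of Egr1 but a wider spread. Its probe set 92248_at read 19914, 7949 and 14662 in knockout glands 1 to 3, and 4756, 2128 and 3771 in wild-type glands 1 to 3. Knockout array 2 was 1.67 times the highest wild-type array, and knockout arrays 1 and 3 were well above it. The mean was 14175 ± 5997 in knockout and 3552 ± 1328 in wild-type glands (SD, n = 3 each). The log2 change was 1.97 ± 0.37 (SE, 95% interval 1.14 to 2.80), just short of the threshold (limma adjusted p = 0.0676). The second probe set, 92249_g_at, is annotated to the same source sequence and is no independent measurement. It read 14724, 6811 and 13721 in knockout and 4613, 2134 and 2895 in wild-type glands, with a log2 change of 1.86 (adjusted p = 0.066). The call turned on single arrays. Without knockout array 2 both probe sets passed (log2 changes 2.34 and 2.21, adjusted p = 0.0337 and 0.0287), and without wild-type array 1 only 92249_g_at did (adjusted p = 0.0316). In the other fits that left out an array neither passed, with an adjusted p of up to 0.333 without knockout array 3, and log2 changes stayed between 1.60 and 2.34 over all 6. With knockout array 1 as the only knockout array the adjusted p was 0.157 for 92248_at and 0.177 for 92249_g_at.

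Nr4a1, also called Nur77, was well measured in both genotypes. It read 62972, 42590 and 58535 in knockout glands 1 to 3, against 37435, 19167 and 24433 in wild-type glands 1 to 3. Wild-type array 1 came close to knockout array 2, which was 1.14 times as high. The mean was 54699 ± 10719 in knockout and 27012 ± 9403 in wild-type glands (SD, n = 3 each), with a log2 change of 1.05 ± 0.24 (SE, 95% interval 0.50 to 1.60) that did not pass (limma adjusted p = 0.166). Leaving out each array in turn gave 1 fit of 6 that passed, the one without wild-type array 1 (log2 change 1.32, adjusted p = 0.032). Without wild-type array 2 the log2 change was 0.83 (adjusted p = 0.427), and without knockout array 3 it was 0.99 (0.508). With knockout array 1 as the only knockout array the adjusted p was 0.557.

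The regions before the Nr4a1 and Nr4a2 starts are shown because their signals went together from array to array, and because both are rich in half-sites of the cyclic AMP response element, the DNA element bound by CREB. The half-site TGACG, searched on both strands, occurs 4 times in the 300-base window of Nr4a1, 4 times in that of Nr4a2 and 4 times in that of Nr4a3. At least 4 occur in 0.231% of all windows and at least 1 in 20.8%. Of the 8 members searched, 7 had at least 1. The 250 bases before each start are at chr15:101266596-101266845 on the plus strand for Nr4a1 and chr2:57124004-57124253 on the minus strand for Nr4a2. Capitals mark the half-sites, read as TGACG or, on the other strand, CGTCA.
Nr4a1: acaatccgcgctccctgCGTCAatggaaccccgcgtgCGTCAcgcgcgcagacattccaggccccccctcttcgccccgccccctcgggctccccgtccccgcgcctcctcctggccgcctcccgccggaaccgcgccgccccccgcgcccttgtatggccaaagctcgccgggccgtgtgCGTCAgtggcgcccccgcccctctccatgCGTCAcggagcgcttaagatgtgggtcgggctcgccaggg
Nr4a2: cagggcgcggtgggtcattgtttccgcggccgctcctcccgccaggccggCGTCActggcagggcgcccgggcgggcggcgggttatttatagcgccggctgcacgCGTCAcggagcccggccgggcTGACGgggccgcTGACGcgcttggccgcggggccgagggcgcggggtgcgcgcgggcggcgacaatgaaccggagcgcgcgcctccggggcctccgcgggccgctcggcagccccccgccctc
Counted from the start, with -1 the last base before it, the half-sites of Nr4a1 begin at -233, -213, -69 and -40, and those of Nr4a2 at -200, -144, -123 and -111. Neither the full element TGACGTCA nor the Nr4a monomer site AAAGGTCA was found in any of the 12 windows searched, which belong to 8 members. Among all windows 1.79% and 1.51% hold them. Egr1 was left out of the search, and no window of Egr3 was at hand. The motifs were chosen with the members' values known.

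Klf4, which in endothelium restrains inflammation and elsewhere helps to keep stem cells undifferentiated, was the other member that passed. Its brighter probe set, 99622_at, read 11182, 8386 and 12407 in knockout glands 1 to 3, against 4548, 2619 and 3410 in wild-type glands 1 to 3. All knockout arrays were high, the lowest being 1.84 times the highest wild-type array. The mean was 10658 ± 2061 in knockout and 3525 ± 970 in wild-type glands (SD, n = 3 each), a 3.05-fold rise (log2 change 1.61 ± 0.23 SE, limma adjusted p = 0.0195). The call did not hold when knockout array 3 was left out (adjusted p = 0.123), nor without array 2 or array 3 of the wild type (0.0563 and 0.0933), while the log2 change stayed between 1.41 and 1.81 over the 6 fits that left out an array. With knockout array 1 alone it was 1.7 (adjusted p = 0.209), and with the Gapdh 3' to 5' ratio as a covariate 1.68 (adjusted p = 0.277). It also did not pass by eBayes without an intensity trend (adjusted p = 0.069). The second Klf4 probe set, 161185_i_at, read 8.11 to 13.7 in knockout and 5.83 to 11.3 in wild-type glands, close to the bottom of the scale, and was not tested.

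A stretch before the Klf4 start is shown because it holds a binding sequence of the Egr proteins, GCGGGGGCG, one of the pair searched with GCGTGGGCG on both strands. Such a match was found in the windows of 3 of the 8 members searched, Klf4, Klf2 and Nr4a1, and in 3.47% of all windows. Egr1 was not among those searched. The 150 bases run from 250 to 101 before the start, at chr4:55532576-55532725 on the minus strand, and the capitals mark the match on its complementary strand.
Klf4: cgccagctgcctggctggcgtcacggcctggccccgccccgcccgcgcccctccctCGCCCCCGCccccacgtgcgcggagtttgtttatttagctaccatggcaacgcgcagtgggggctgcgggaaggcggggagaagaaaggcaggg
These windows are GC-rich, which was not accounted for in the shares.

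Klf6 read 5323, 3418 and 3941 in knockout glands 1 to 3, and 2032, 1696 and 2583 in wild-type glands 1 to 3. The groups are separate, with the lowest knockout array at 1.32 times the highest wild-type array. The mean was 4227 ± 984 in knockout and 2104 ± 448 in wild-type glands (SD, n = 3 each), and the log2 change of 1.0 ± 0.22 (SE, 95% interval 0.50 to 1.5) did not pass (limma adjusted p = 0.153). With knockout array 1 alone it was 1.35 (adjusted p = 0.316).

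Klf9 gave opposite values on its 2 tested probe sets. The brighter one, 93528_s_at, read 10840, 13295 and 10656 in knockout glands 1 to 3, and 7626, 10325 and 9518 in the wild-type glands. Knockout array 3 was only 1.03 times wild-type array 2, and the log2 change was 0.34 (95% interval -0.02 to 0.71, limma adjusted p = 0.469). The dimmer one, 93527_at, read 1173, 965 and 816 in knockout and 1176, 1598 and 1729 in wild-type glands, with a log2 change of -0.60 (95% interval -1.15 to -0.05, adjusted p = 0.408). All knockout arrays lay below all wild-type arrays, as for 8.83% of all tested probe sets, but knockout array 1 and wild-type array 1 were almost equal. No direction can be given for Klf9.

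Klf2, which responds to blood flow in endothelium, was left out of the test as dim. It read 112, 126 and 139 in knockout glands 1 to 3 and 101, 107 and 89.9 in the wild-type glands, where the lower limit for testing was a signal of about 582. The knockout values were all higher, by as little as 1.04 times between the nearest arrays. Among all 12422 probe sets, dim ones included, 6.57% had all knockout arrays above all wild-type arrays.

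**Figure D2:**
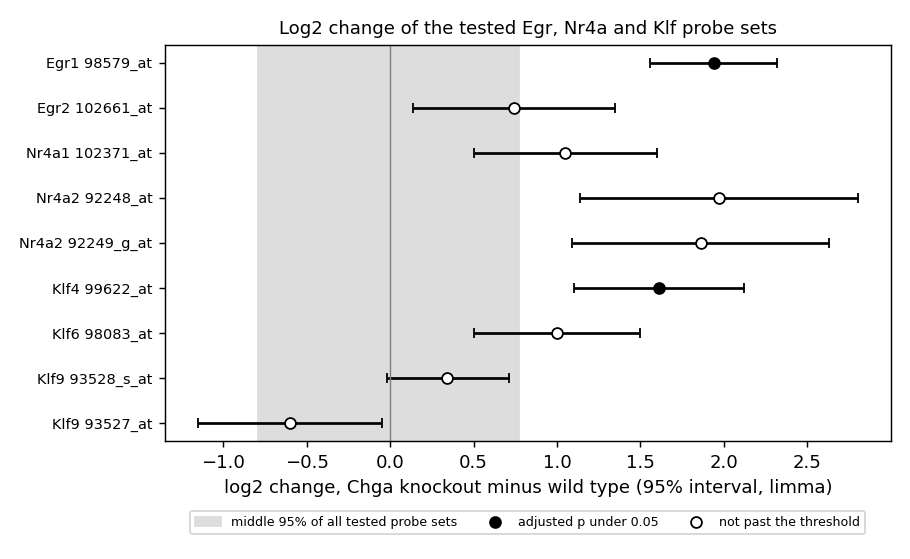
Log2 change (Chga knockout minus wild type, on the log2(signal + 16) scale) of the 9 tested probe sets, with 95% intervals from limma. Filled points, Egr1 and Klf4, passed an adjusted p of 0.05, open points did not, and the grey band from -0.79 to 0.77 holds the middle 95% of all 7453 tested probe sets, with 6 of the 9 points above it.

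The members did not rank the arrays alike. Within the knockout glands, array 2 had the highest Egr1 signal and the highest signal of the brighter Klf9 probe set. It had the lowest signal of Nr4a1, of both Nr4a2 probe sets, of Klf4 and of Klf6. Its Nr4a2 signal on 92248_at was 1.24 above the wild-type mean on the log2 scale, against 2.56 and 2.12 on knockout arrays 1 and 3, while its Egr1 signal was 2.20 above it, against 1.99 and 1.64. Array 2 was the lowest knockout array for 5 of the 9 member probe sets and for 35.2% of all tested probe sets. Within the wild-type glands, array 1 was the highest for both Nr4a2 probe sets, Nr4a1 and Klf4, and array 2 the lowest for the same probe sets. Array 1 was the highest wild-type array for 4 of the 9 member probe sets and for 34.1% of all tested probe sets. Egr1 varied little among the wild-type glands, from 4586 to 5509.

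**Figure D3:**
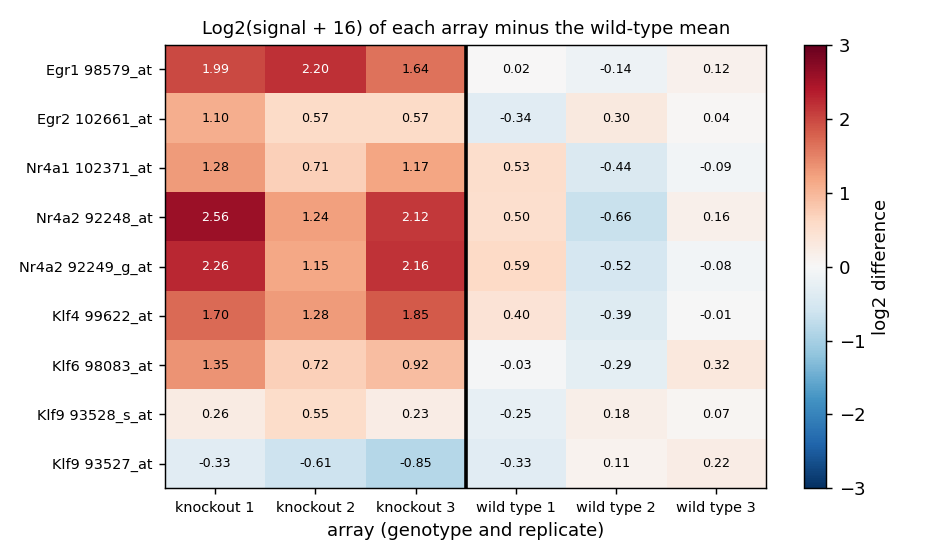
Log2(signal + 16) on each array minus the mean of the 3 wild-type arrays, for the 9 tested probe sets (rows) and the 3 Chga knockout and 3 wild-type arrays (columns, split by the black line); red is above and blue below the wild-type mean. Knockout array 2 holds the highest Egr1 value, 2.20, and the lowest knockout value of Nr4a2 on 92248_at, 1.24.

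The genes whose log2 signals followed these members most closely over the 6 arrays are given as a description, since the difference between the genotypes by itself makes correlations high. For Egr1 they were Junb, a subunit of the AP-1 factor (Pearson r = 0.991), the ribosome assembly gene Nop53 (0.988) and Dcn, the matrix proteoglycan decorin (0.985). For Nr4a1 they were Pnck, a calcium and calmodulin dependent kinase gene (0.980), Irs2, an adaptor of the insulin receptor (0.975), and Nr4a2 itself (0.974). Spearman's rho between Nr4a1 and Nr4a2 was 1, so that both ranked the 6 arrays identically. Irs2 averaged 2579 in knockout and 685 in wild-type glands, a log2 change of 2.39 that did not pass (limma adjusted p = 0.218). Nr4a2 was followed by Spg21 and Gdpd5 (both 0.988) and by Bcl2l1, a survival factor of the Bcl2 family (0.982). Klf4 was followed by Spg21 (0.991), Bcl2l1 (0.983) and the stress-inducible Gadd45b (0.982). Of these genes, Junb and Gadd45b rose (log2 changes 3.48 and 2.84, adjusted p = 0.000139 and 0.00309), and the log2 changes of Spg21, Gdpd5 and Bcl2l1 were 0.37, 0.44 and 0.32 without passing.

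Relatives of the members in the Egr, Klf and Sp families did not pass. Of all named genes tested, 0.177% passed as higher and 0.212% as lower, so 0 calls in a short list is near those shares. At an unadjusted p under 0.05, 298 of all 5663 were higher and 310 lower. Of 19 relatives listed, 12 had a probe set and 8 were tested, of which 0 passed in limma, with 1 higher and 1 lower at an unadjusted p under 0.05. Klf3, a repressor of the family, read 4725, 4587 and 4432 in knockout glands 1 to 3 against 2616, 2162 and 3221 in wild-type glands (log2 change 0.80, adjusted p = 0.153). Klf13 had a log2 change of -0.42 (adjusted p = 0.389), Klf7 0.57 (0.484) and Klf17 0.79 (0.487). The median of the 8 was 0.26.

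Other genes of the early response showed more calls. Of 34 listed, 30 had a probe set and 25 were tested: 7 rose, 0 fell and 18 did not pass, where 0.177% of all named genes passed as higher. The 7 were Junb, Gadd45b, Btg2, Rgs2, Ier3, Fos and Atf3, and the list's median log2 change was 0.74. The 0.177% stands for 10 genes, and these 7, Egr1 and Klf4 are among them. This list too was chosen with earlier results of these data known, so its count describes it and is no independent evidence. With knockout array 1 as the only knockout array 2 of the 25 passed, and likewise 2 with the Gapdh ratio as a covariate. Fosb, which partners Jun proteins, split the knockout glands much as Nr4a2 did, with 8995, 4109 and 8044 in knockout glands 1 to 3 and 3602, 2628 and 2854 in wild type (log2 change 1.15, adjusted p = 0.192). Fos split them the other way, with 9734, 24102 and 14126 in knockout glands 1 to 3 and 720, 1885 and 3362 in wild type. Not all early genes were higher: Dusp6, an inhibitor of ERK kinases, read 10015, 8345 and 8224 in knockout against 14422, 16447 and 14515 in wild-type glands (log2 change -0.77, adjusted p = 0.0592).

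Several of the factors that switch these genes on could not be tested. Of 30 genes listed around serum response factor, CREB, MEF2 and their kinases, 19 had a probe set and 12 were tested. Srf itself had none listed, and Creb1, Elk3, Elk4, Mef2c and Nr3c1 were too dim. Of the 12, 0 passed in limma, where 0.177% of all named genes passed as higher and 0.212% as lower. At an unadjusted p under 0.05, 3 were higher and 0 lower, beside 298 higher and 310 lower of all 5663 named genes tested. The median of the 12 was 0.12. Mef2a, of a factor family that acts on Nr4a1 in T cells, averaged 3857 ± 927 in knockout and 2088 ± 360 in wild-type glands (SD, n = 3 each, log2 change 0.87, adjusted p = 0.192). Prkacb, a catalytic subunit of protein kinase A, had a log2 change of 0.32 (0.408), the coactivator Crebbp 0.40 (0.433) and Crem 0.45 (0.508). Of 11 tested cofactors, out of 14 listed, 0 passed, also at an unadjusted p under 0.05, with a median of 0.12. Among them Nab2, which binds Egr proteins, restrains them and is itself induced by them, read 2747, 2370 and 3325 in knockout and 2829, 1682 and 1892 in wild-type glands, which overlap (log2 change 0.42, adjusted p = 0.522). The corepressors Ctbp2, Hdac1 and Sin3a had log2 changes of 0.25, 0.19 and 0.17.

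Genes known as targets of the members did not pass either. Of all named genes tested, 0.177% passed as higher and 0.212% as lower, so 0 calls in short lists is near those shares. At an unadjusted p under 0.05, 298 of all 5663 were higher and 310 lower. Of 11 tested Egr targets, out of 20 listed, 0 passed, also at an unadjusted p under 0.05, with a median of 0.12. They include Nab2, Cd44 (log2 change -0.72, adjusted p = 0.534), Tgfb1 (0.84, 0.542) and Pdgfa (0.24, 0.594). Pnmt, which makes adrenaline and whose promoter Egr1 binds in chromaffin cells, averaged 36439 ± 8957 in knockout and 42136 ± 6290 in wild-type glands (SD, n = 3 each, log2 change -0.23, adjusted p = 0.681). Of 8 tested Nr4a targets, out of 13 listed, 0 passed, 1 was higher at an unadjusted p under 0.05, and the median was 0.10. The cholesterol carrier gene Star, the 21-hydroxylase Cyp21a1, Hsd3b6, an isoform of the zona glomerulosa, and Dlk1 had log2 changes of -0.13, 0.24, 1.32 and 0.38 (adjusted p = 0.792, 0.654, 0.475 and 0.357). Hsd3b6 read 1650, 7770 and 4226 in knockout and 1808, 628 and 2994 in wild-type glands, which overlap, on a probe set that near-identical Hsd3b genes may share. Of 8 tested Klf targets, out of 13 listed, 0 passed, with 1 higher and 1 lower at an unadjusted p under 0.05 and a median of 0.28. Cdkn1c, a brake on the cell cycle, averaged 30671 ± 10124 in knockout and 60506 ± 11088 in wild-type glands (SD, n = 3 each, log2 change -1.01, adjusted p = 0.153). Eng, Mt1 and Thbd had log2 changes of 0.47, 0.52 and 0.29.

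Markers of other cells in the gland were summed on each array, since in a bulk sample a change in the number of cells of a type cannot be told apart from a change in RNA per cell. The summed signal of 10 endothelial markers, a cell type in which Klf2 and Klf4 are active, was 33870 to 43493 in knockout and 31462 to 32769 in wild-type arrays. The summed signal of 11 macrophage markers was 22120 to 37163 in knockout and 18233 to 22503 in wild-type arrays. The endothelial sums do not overlap between the genotypes, and the macrophage sums do. Eng, the brightest endothelial marker, weighs most in its sum, with 12747, 15045 and 13681 in knockout and 10038, 9416 and 10331 in wild-type glands. Emcn, the next brightest, read 5376, 9508 and 8811 against 6834, 8711 and 7670, which overlap. Among single endothelial markers only Eng and Tek were separate, as for 7.55% of all tested probe sets, and Tek by only 1.01 times. Among single macrophage markers only Csf1r and Cd14 were separate, by 1.24 and 1.05 times between the nearest arrays. Of the tested markers, 0 of 10 endothelial and 0 of 9 macrophage genes passed in limma, with 1 and 3 higher at an unadjusted p under 0.05. Of all 5663 named genes tested, 10 passed as higher, and 298 were higher at an unadjusted p under 0.05. The medians of the endothelial and macrophage lists were 0.31 and 0.63. The markers of smallest p had log2 changes of 0.47 (Eng) and 0.56 (Tek) in endothelium and of 0.91 (Csf1r) and 0.90 (Mpeg1) in macrophages. On knockout array 1, where the endothelial sum was 33870 and the macrophage sum 22120, Egr1 and Klf4 read 20086 and 11182. No marker of these lists was at 0, and the part of these cells in the result was not tested.

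The other marker lists had 0 calls as well, where 0.177% of all named genes passed as higher and 0.212% as lower. Of all 5663 named genes tested, 298 were higher at an unadjusted p under 0.05. Of 7 tested skeletal muscle genes 3 were higher at an unadjusted p under 0.05, with a median of 0.85. Acta1 read 565, 32131 and 13869 in knockout glands 1 to 3, against 180, 180 and 29.1 in wild type. The count and median leave out Myh1, Tnnt3, Mb, Tnni2 and Myh2, whose mean log2 signal was too low for testing. Their log2 changes were 4.07, 3.98, 3.49, 2.81 and -0.86. The 3 member probe sets of Nr4a1 and Nr4a2, and those of Klf4 and Klf6, were not highest on the array with most muscle signal, knockout array 2, but Egr1 and the brighter Klf9 probe set were. Adipocyte genes had a median of 0.40 with 1 of 5 higher at an unadjusted p under 0.05, smooth muscle genes 0.21 with 0 of 4, medullary genes 0.15 with 1 of 5 and cortical genes 0.05 with 0 of 7. The 5 lymphocyte genes with a probe set were all too dim to be tested, and their summed signal was 1772 to 2151 in knockout and 989 to 1472 in wild-type arrays.

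**Figure D4:**
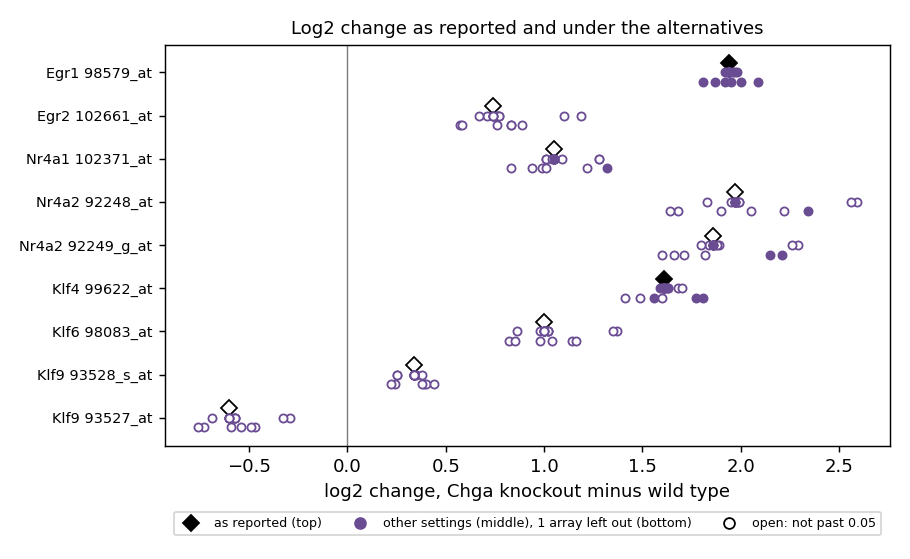
Log2 change (Chga knockout minus wild type) of the 9 tested probe sets as reported (diamond, top), under other settings (circles, middle) and with 1 array left out (circles, bottom); filled symbols passed an adjusted p of 0.05. Egr1 stayed between 1.81 and 2.09 and passed in all 19 alternatives, and Klf4 stayed between 1.41 and 1.81 and passed in 13.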

How the data were processed

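RNA of 6 adrenal glands was hybridised to 1 single-colour array each, and groups were read from the sample titles. The authors deposited 1 intensity per probe set and array, on a linear scale; MAS5 is the tool that the submitters' processing notes name, with no version or scaling target. The mean signal without the top and bottom 2% of probe sets was 2501 on every array, so no further scaling was done. Precision is limited by the number of arrays. The labels describe 3 mice per group, and each array was read as 1 mouse.

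Of 12488 probe sets, 66 controls were left out, and 10833 of the other 12422 have 1 gene symbol, updated through Entrez identifiers. Signals were put on a log2 scale after adding 16. Probe sets under the 40th percentile of mean log2 signal were left out, which kept 7453. The test was limma's (version 3.58.1, R 4.3.3) with lmFit and eBayes, the prior variance following signal, and p-values were adjusted by Benjamini-Hochberg over the 7453, and every adjusted p in the text is from this test unless another fit is named beside it. On simulated data with these spreads, 79 of 88 probe sets changed by 2 on the log2 scale were recovered, and 39 of 96 changed by 1, with 9 false calls among the unchanged. Because 16 is added first, fold changes of dim probe sets come out too small. Each gene of a list was represented by its brightest tested probe set.

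Named were all members, Chga, up to 4 genes of smallest p per list, and the 3 genes most correlated with Egr1, Klf4, Nr4a1 and Nr4a2. Markers were named where they moved with a result. Fos, Fosb, Dusp6, Ier3 and Atf3 were named after their values were seen. The members and lists were chosen with earlier results of these data known. Alternatives covered pseudocount, filter, scaling, variance model, array weights, replicate block, a Gapdh 3' to 5' covariate and left-out arrays. Promoter windows are from RefSeq (GRCm38.p6).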

Additional observations from a re-analysis of the deposited data

How the results depend on the processing

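All 9 tested member probe sets kept their direction in every alternative run, 19 for each except 18 for Egr2 and for the Klf9 probe set 93527_at, which a filter at the 60th percentile removes. The adjusted p of Egr1 ranged from 0.000532 to 0.0379, and that of Klf4 from 0.00312 to 0.277. The reported counts were 2 member probe sets, 33 probe sets in all and 7 other early genes past the threshold. They were 1, 17 and 3 by eBayes without trend, 1, 12 and 2 with the Gapdh ratio as a covariate, and 1, 13 and 2 with knockout array 1 alone. With 1 array left out they ranged from 1 to 4, from 15 to 141 and from 3 to 8. Without a filter the early genes numbered 4. Among these left-out-array fits, the lowest overall count came without knockout array 3 and the highest without knockout array 1. The member count was 4 without knockout array 2 or wild-type array 1, and 1 when knockout array 3, or array 2 or 3 of the wild type, was left out. The causes were not tested.

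With the replicate number as a block the counts were 5, 57 and 11, and Nr4a1 and both Nr4a2 probe sets passed (adjusted p = 0.01, 0.000396 and 0.00183). Same-numbered arrays deviated from their group means with correlations of 0.255, -0.035 and -0.039, and arrays of different numbers with -0.181 to 0.25. With 3 arrays per group these values cannot decide whether the numbers pair the arrays. Dim signals limit Klf2 and the second probe sets of Egr1 and Klf4.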
